A study of Homo sapiens with 12 samples.

Results

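The expression of 10 genes that set the epithelial identity of prostate cells was followed across 5 construct groups of LNCaP-Abl cells: the keratins KRT8, KRT18 and KRT19, the transcription factors SPDEF and HOXB13, the epithelial adhesion genes EPCAM and CDH1, and the mesenchymal genes CDH2, VIM and ZEB1. Every probe that the platform annotation gives to these symbols was taken, which made 14 of the 47323 probes on the array. Of these, 12 were detected on at least 2 arrays, so that 8 of the 10 genes entered the fit over 12227 genes. CDH2 and ZEB1 had only probes that were detected nowhere. LNCaP-Abl is an established human prostate cancer line grown out of LNCaP by long culture without androgen. The cells carried a construct for SPOP F102C (2 arrays), SPOP F133V (2 arrays), SPOP F133L (2 arrays), WT SPOP (3 arrays) or a control vector (3 arrays). SPOP picks the proteins that a CUL3 ubiquitin ligase marks for destruction, and the mutants are forms found in prostate tumours. Cells of all groups shared a medium of RPMI1640 with 10% charcoal-stripped serum, which is poor in androgens, and were induced with doxycycline. The submitters call the arrays of a group biological replicates, but the sources used here do not say whether they came from separate transfections, so the p-values rest on a spread that may be technical.

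Keratins form the intermediate filaments of epithelial cells. KRT8 pairs with KRT18 in simple epithelia, including the luminal cells of the prostate, and KRT19 is a smaller keratin of simple and ductal epithelia. SPDEF is an ETS factor of secretory epithelia, and HOXB13 is a homeobox factor of the prostate lineage that works with the androgen receptor. EPCAM and E-cadherin, the product of CDH1, hold epithelial cells together. N-cadherin (CDH2), vimentin (VIM) and the repressor ZEB1 are the textbook marks of the mesenchymal state, in which ZEB1 represses CDH1.

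The label of a luminal prostate line was set against marker genes. KRT8, KRT18 and HOXB13 were detected on all 12 arrays and KLK3, which encodes prostate-specific antigen, on 10. The basal keratins KRT5 and KRT14 were detected on 0 arrays, as were the neuroendocrine markers CHGA and SYP, the fibroblast markers COL1A1, COL3A1, DCN and LUM, the T cell marker CD3E and the endothelial markers PECAM1 and CDH5. Of the remaining markers, the neuroendocrine factor INSM1 was detected on 5 arrays (2 mutant, 2 WT SPOP and 1 control vector), the fibroblast collagen COL1A2 on 2, the endothelial VWF and the leukocyte gene PTPRC on 1 each, and CD68 on all 12. The number of detected probes ran from 17485 to 19543 on the mutant arrays, from 18906 to 19175 on WT SPOP arrays and from 19272 to 19677 on control vector arrays. Median intensity before normalization ran from 109 to 123 on mutant arrays, 120 to 126 on WT SPOP arrays and 123 to 130 on control vector arrays. Both ranges reached lower in the mutants, with the SPOP F133V arrays at the low end of detected probes. Fits that carried the number of detected probes as a covariate are given below. That number goes partly with the construct, so these fits also remove part of the difference between groups. The part of detection and the part of the construct cannot be told apart by them. These are bulk RNA samples, in which fewer cells of a type and less RNA per cell cannot be told apart. All levels below are log2 intensities after background correction and quantile normalization. A gene was called when limma's adjusted p was under 0.05. Levels of different probes are not on a common scale, so each is compared only with itself.

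The keratins did not move as a set. KRT19 was higher in all mutant groups and level between WT SPOP and control vector. KRT8 was higher than in control vector with WT SPOP as well as with the mutants. KRT18 was higher in the mutants, by 1 of its 2 probes.

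KRT19, probe ILMN_1730777, had log2 levels of 7.05 and 6.82 on the SPOP F102C arrays, 7.20 and 7.05 on SPOP F133V and 7.54 and 7.51 on SPOP F133L, against 5.63, 5.99 and 5.59 on WT SPOP and 5.66, 5.91 and 5.85 on control vector. All 6 mutant arrays lay above all 6 others, and WT SPOP overlapped control vector. The mutants averaged 7.20 ± 0.29 (SD, n = 6), WT SPOP 5.73 ± 0.22 and control vector 5.81 ± 0.13 (n = 3 each). The rise over WT SPOP was 1.46 ± 0.11 on the log2 scale (SE), or 2.75-fold, with an adjusted p of 1.75e-05 in limma, and the rise over control vector was 1.39 ± 0.11 (adjusted p = 9.19e-06). Against control vector, WT SPOP differed by -0.07 ± 0.12 (adjusted p = 0.801). By mutant, the rise over WT SPOP was 1.20 ± 0.14 in SPOP F102C (adjusted p = 0.00114), 1.39 ± 0.14 in SPOP F133V (0.000283) and 1.79 ± 0.14 in SPOP F133L (3.54e-05). In the order of group means SPOP F133L came first, then SPOP F133V and SPOP F102C, whose arrays overlapped, then control vector and WT SPOP, which also overlapped. The F test among the 3 mutants gave an unadjusted p of 0.00676 and an adjusted p of 0.230.

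KRT19 was a dim gene, and the size of its fold change depended on the background correction. Its deposited intensities were not normalized between arrays. They were 206 and 214 on the SPOP F102C arrays, 170 and 196 on SPOP F133V and 261 and 263 on SPOP F133L, against 157, 162 and 148 on WT SPOP and 167, 166 and 172 on control vector. Before normalization, then, the first SPOP F133V array lay inside the control vector range. That array also had a median intensity over all probes of 109, against 123 to 130 on control vector arrays. In the authors' processed values, which have 1 median on all arrays, its KRT19 level was 8.17 against 7.70 to 7.75 on control vector. The difference between mutants and WT SPOP was 0.69 with no background correction and 0.46 in the authors' processed values, and it passed the threshold in both. With the number of detected probes as a covariate it was 1.35 (adjusted p = 0.00163), although the single comparison of SPOP F133V was then 1.14 (adjusted p = 0.256).

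KRT8, probe ILMN_1753584, measured 9.07 and 9.01 with SPOP F102C, 9.56 and 9.43 with SPOP F133V and 9.55 and 9.30 with SPOP F133L, against 9.22, 9.11 and 9.26 with WT SPOP and 8.71, 8.51 and 8.94 with control vector. Every SPOP array, mutant or WT, lay above every control vector array. Within the SPOP arrays, those of SPOP F102C were below and those of SPOP F133V and SPOP F133L above the WT SPOP arrays. WT SPOP exceeded control vector by 0.48 ± 0.12 (1.39-fold, adjusted p = 0.0350) and the mutants exceeded control vector by 0.60 ± 0.10 (1.51-fold, adjusted p = 0.00325). The difference between mutants and WT SPOP was 0.12 ± 0.10 (95% interval -0.10 to 0.34, adjusted p = 0.485). Among the mutants, the differences from WT SPOP were -0.16 ± 0.13 for SPOP F102C (adjusted p = 0.577), 0.30 ± 0.13 for SPOP F133V (0.183) and 0.22 ± 0.13 for SPOP F133L (0.350), and the F test among them had an adjusted p of 0.302. The call of KRT8 in WT SPOP against control vector was close to the threshold: it was lost without control vector array 1 (adjusted p = 0.0967) or 2 (0.126), without WT SPOP array 1 (0.1005), 2 (0.0665) or 3 (0.115), and without SPOP F102C array 1 or 2 (0.0507 each), which enter only the estimate of the spread. It was also lost with equal array medians in place of quantile normalization (0.35, adjusted p = 0.257) and with the detected probes as a covariate (0.40, adjusted p = 0.160), and these settings likewise ended the call of KRT8 in mutants against control vector (0.11 and 0.40, adjusted p = 0.542 and 0.479).

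KRT18 was read by a pair of probes that the annotation assigns to different RefSeq transcripts of the gene, and only the brighter was called in the mutants. The brighter, ILMN_1803408, stood for the gene and measured 7.997 and 8.04 with SPOP F102C, 8.48 and 8.71 with SPOP F133V and 8.52 and 8.53 with SPOP F133L, against 7.45, 7.96 and 8.13 with WT SPOP and 7.70, 7.80 and 7.58 with control vector. The SPOP F133V and SPOP F133L arrays lay above all others, while SPOP F102C fell inside the WT SPOP range. On this probe the mutants exceeded WT SPOP by 0.53 ± 0.13 (1.44-fold, adjusted p = 0.0242) and control vector by 0.69 ± 0.13 (1.61-fold, adjusted p = 0.00618). The difference between WT SPOP and control vector was 0.16 ± 0.15 (adjusted p = 0.614). By mutant, SPOP F102C differed from WT SPOP by 0.17 ± 0.17 (adjusted p = 0.656), SPOP F133V by 0.75 ± 0.17 (0.0217) and SPOP F133L by 0.67 ± 0.17 (0.0383), and the F test among the mutants had an adjusted p of 0.307. The spread of the WT SPOP arrays bears on these calls. Without WT SPOP array 1, the lowest, the difference between mutants and WT SPOP was 0.33 (adjusted p = 0.0977), and without WT SPOP array 2 it was 0.59 (adjusted p = 0.0506). The call of SPOP F133V was lost without either of its arrays (adjusted p = 0.0632 without array 1 and 0.1001 without array 2). That of SPOP F133L was lost in 7 of the 12 fits that left out an array: without control vector array 1 (0.0538), WT SPOP array 1 (0.0710) or 2 (0.0626), SPOP F102C array 1 or 2 (0.0532 each) and SPOP F133L array 1 (0.126) or 2 (0.142). With equal array medians the brighter KRT18 probe missed the threshold in mutants against WT SPOP (0.16, adjusted p = 0.420) and against control vector (0.21, 0.249), as it did with the detected probes as a covariate (0.69, 0.0731 and 0.96, 0.129).

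The dimmer KRT18 probe, ILMN_1730848, measured 7.40 and 7.54 with SPOP F102C, 7.77 and 7.72 with SPOP F133V and 7.50 and 7.37 with SPOP F133L, against 7.09, 7.37 and 7.61 with WT SPOP and 7.52, 7.37 and 7.35 with control vector. Only the SPOP F133V arrays stood above all the rest. In the fit over all 23133 probes, the mutants differed on this probe by 0.19 ± 0.11 from WT SPOP (adjusted p = 0.344) and by 0.14 ± 0.11 from control vector (adjusted p = 0.521). The gap between the brighter and the dimmer KRT18 probe, taken on each array, was 0.83 ± 0.26 in the mutants (n = 6), 0.49 ± 0.12 in WT SPOP and 0.28 ± 0.13 in control vector (SD, n = 3 each). In two-sided exact permutation tests over arrays, chosen after these values were seen, the gap differed by 0.34 between mutants and WT SPOP (p = 0.0833, 0.125 adjusted over 3 comparisons) and by 0.55 between mutants and control vector (p = 0.0238, adjusted 0.0714). None of these passed after adjustment, so that the probes are not shown to differ. The smallest p that 6 arrays against 3 allow is 0.0119. For WT SPOP against control vector p was 0.2, where 3 arrays against 3 cannot go below 0.1. With the mean of both probes standing for KRT18, the difference between mutants and WT SPOP was 0.36 (adjusted p = 0.0609). KRT8 and KRT18 have many processed pseudogenes, 52 and 68 by symbol in the RefSeq gene table, and KRT19 has 5; whether transcripts of these reached the probes was not tested.

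**Figure D1:**
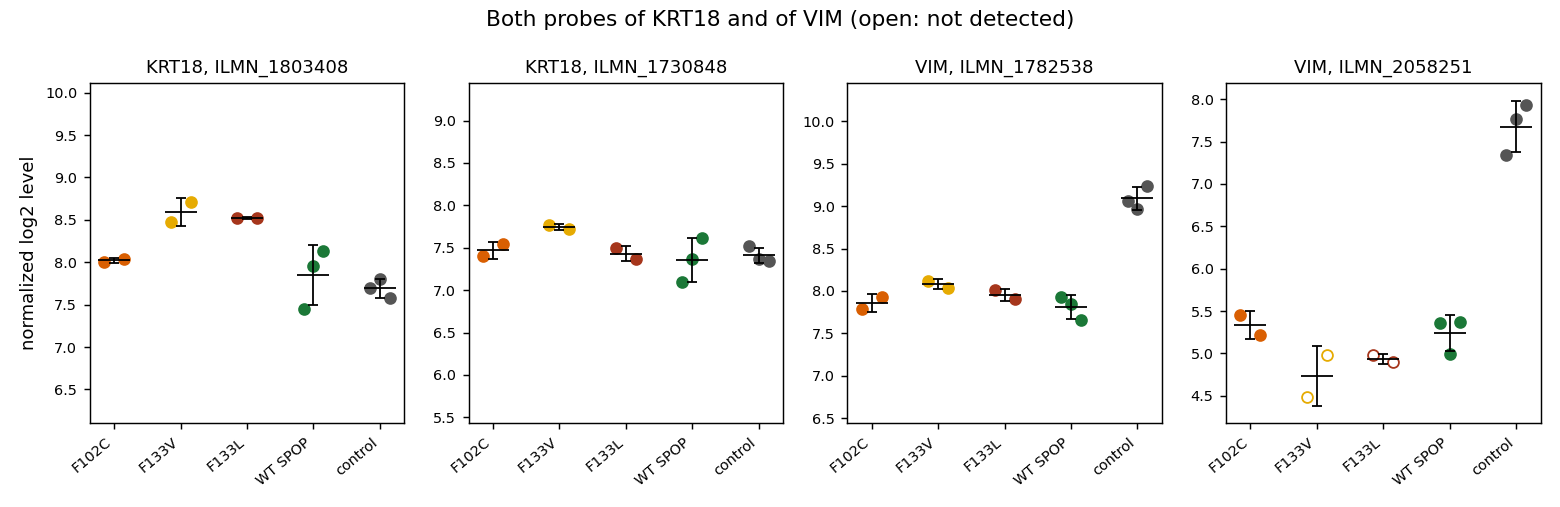
Log2 level on each array for both probes of KRT18 and both probes of VIM, with the mutant groups left of WT SPOP and control vector. Each panel has its own vertical scale, bars are means with SD, and open points mark arrays on which the probe was not detected. The brighter KRT18 probe separates SPOP F133V and SPOP F133L from the other groups and the dimmer one separates SPOP F133V alone, while both VIM probes are highest in control vector.

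SPDEF was higher in every mutant group. HOXB13 was higher than in control vector with the mutants, and by a like amount, though not called, with WT SPOP. Probe ILMN_2161330 for SPDEF measured 10.45 and 10.45 on the SPOP F102C arrays, 10.68 and 10.63 on SPOP F133V and 10.67 and 10.54 on SPOP F133L, against 10.02, 9.95 and 9.64 on WT SPOP and 9.80, 9.56 and 10.06 on control vector. The 6 mutant arrays lay above the other 6, which overlapped each other. The mutants averaged 10.57 ± 0.11 (n = 6), WT SPOP 9.87 ± 0.21 and control vector 9.81 ± 0.25 (SD, n = 3 each). SPDEF rose by 0.70 ± 0.12 over WT SPOP (1.62-fold, adjusted p = 0.00331) and by 0.76 ± 0.12 over control vector (1.70-fold, adjusted p = 0.00167). WT SPOP and control vector differed by 0.07 ± 0.13 (95% interval -0.23 to 0.36, adjusted p = 0.843). The mutants taken singly differed from WT SPOP by 0.58 ± 0.15 in SPOP F102C (adjusted p = 0.0617), 0.79 ± 0.15 in SPOP F133V (0.0108) and 0.73 ± 0.15 in SPOP F133L (0.0161), and the F test among them had an adjusted p of 0.785. The SPOP F133V call was lost without SPOP F133V array 1 (adjusted p = 0.0699), that of SPOP F133L without WT SPOP array 3 (0.0505) or SPOP F133L array 1 (0.0914) or 2 (0.0636), and SPOP F102C passed without control vector array 3 (0.0437). With the detected probes as a covariate, SPDEF missed the threshold in mutants against WT SPOP (adjusted p = 0.0992) and against control vector (0.54, adjusted p = 0.378); with equal array medians the differences were 0.37 (adjusted p = 0.0452) and 0.28 (0.106).

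HOXB13, probe ILMN_1742677, measured 9.11 and 9.04 with SPOP F102C, 9.22 and 9.10 with SPOP F133V and 8.64 and 9.13 with SPOP F133L, against 9.06, 8.80 and 9.12 with WT SPOP and 8.60, 8.35 and 8.58 with control vector. All 9 SPOP arrays lay above the 3 control vector arrays, by a narrow margin for the first SPOP F133L array. The mutants exceeded control vector by 0.53 ± 0.12 (1.44-fold, adjusted p = 0.0136) and differed from WT SPOP by 0.05 ± 0.12 (95% interval -0.21 to 0.30, adjusted p = 0.849). For WT SPOP against control vector the difference was 0.48 ± 0.14 with an adjusted p of 0.0601. This last value sat at the threshold: it passed in 7 of the 14 processing alternatives (adjusted p of 0.00387 to 0.0474) and without SPOP F133L array 1 or 2 (0.0302 each). In mutants against control vector the HOXB13 call was lost without control vector array 2 (0.45, adjusted p = 0.0735), with equal array medians (0.04, adjusted p = 0.823) and with the detected probes as a covariate (0.43, adjusted p = 0.539).

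**Figure D2:**
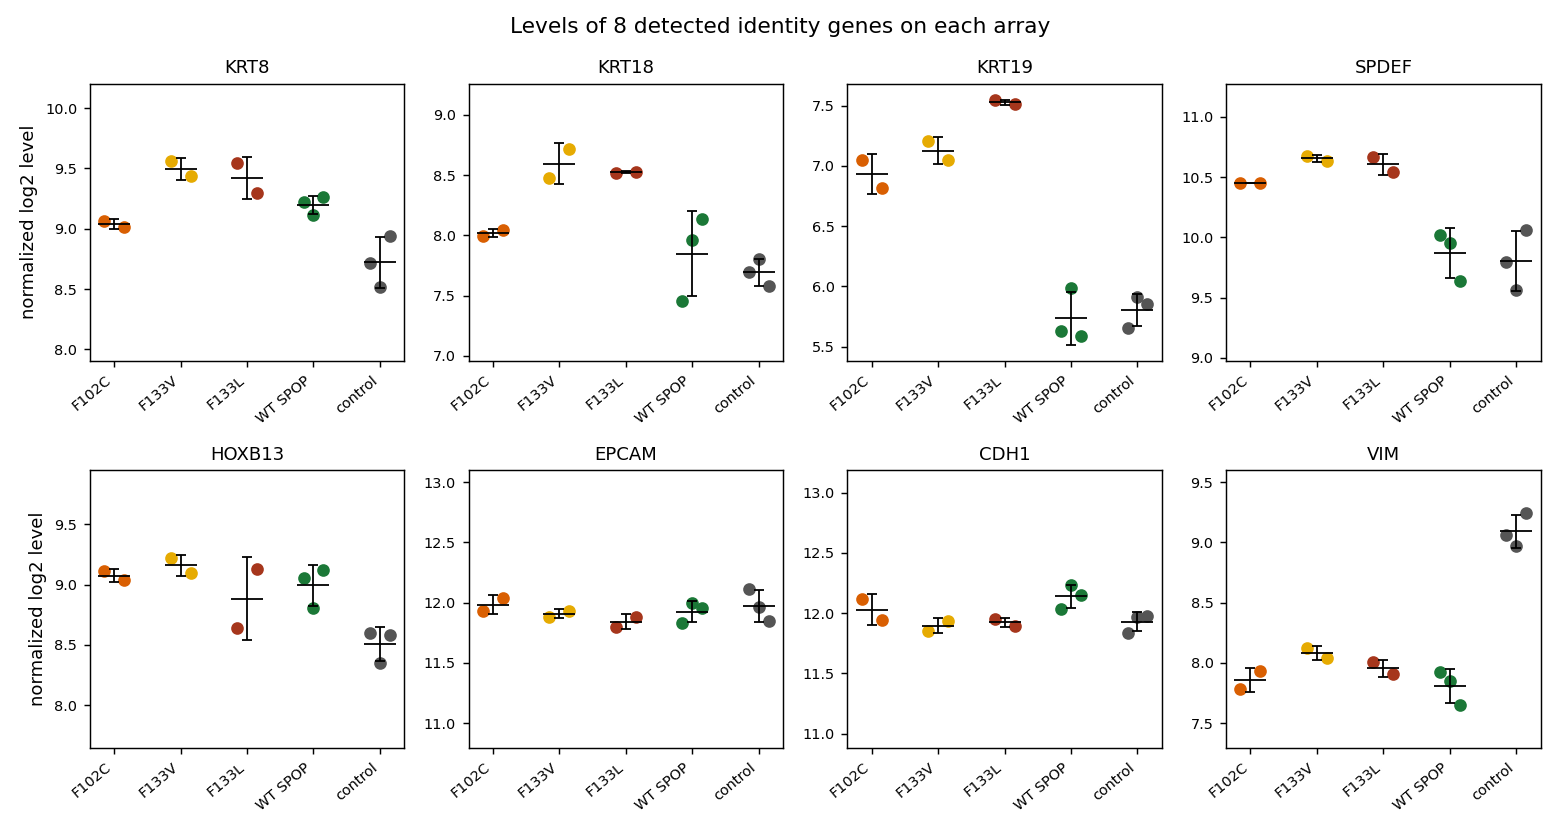
Log2 level of the 8 tested identity genes on each of the 12 arrays, from left to right SPOP F102C, SPOP F133V, SPOP F133L, WT SPOP and control vector. Points are arrays and bars the group mean with SD, and each panel has its own vertical scale. KRT19 and SPDEF are high in the 3 mutant groups, VIM is high in control vector alone among the groups, and EPCAM stays between 11.80 and 12.11.

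Neither adhesion gene was called in any comparison. EPCAM had 3 probes, of which the brightest, ILMN_2160210, measured 11.93 and 12.04 with SPOP F102C, 11.88 and 11.93 with SPOP F133V and 11.80 and 11.88 with SPOP F133L, against 11.83, 11.99 and 11.95 with WT SPOP and 12.11, 11.97 and 11.84 with control vector. On this probe the mutant arrays overlapped WT SPOP and control vector, and among the mutants SPOP F102C lay above SPOP F133L. The mutants differed from WT SPOP by -0.01 ± 0.08 (95% interval -0.20 to 0.17, adjusted p = 0.936) and from control vector by -0.06 ± 0.08 (-0.24 to 0.12, adjusted p = 0.692), and WT SPOP differed from control vector by -0.05 ± 0.10 (-0.26 to 0.16, adjusted p = 0.838). The other EPCAM probes ran from 9.08 to 9.54 (ILMN_2160209) and from 11.27 to 11.63 (ILMN_3249032) over the 12 arrays, and neither was called in any of these comparisons. With equal array medians, which move the median of all genes to -0.37 in mutants against control vector, EPCAM was -0.50 there (adjusted p = 0.00369).

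CDH1, probe ILMN_1770940, measured 12.12 and 11.94 with SPOP F102C, 11.85 and 11.94 with SPOP F133V and 11.95 and 11.90 with SPOP F133L, against 12.04, 12.23 and 12.15 with WT SPOP and 11.84, 11.97 and 11.98 with control vector. The WT SPOP arrays were the high ones, lying above control vector and above all mutant arrays but the first SPOP F102C array. The mutants differed from WT SPOP by -0.19 ± 0.08 (95% interval -0.37 to -0.01, adjusted p = 0.154) and from control vector by 0.02 ± 0.08 (-0.15 to 0.20, adjusted p = 0.897). WT SPOP differed from control vector by 0.21 ± 0.09 (0.01 to 0.42, adjusted p = 0.216). CDH1 in mutants against WT SPOP did pass in 4 of the 14 processing alternatives, namely no background correction (adjusted p = 0.0388), equal array medians (-0.45, 0.0117), the authors' processed values (0.0283) and the trended, robust form of limma's moderation (0.0473). In mutants against control vector its difference was -0.42 with equal array medians (adjusted p = 0.0121), and in WT SPOP against control vector it passed in the authors' processed values (0.0441).

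VIM fell with WT SPOP and with the mutants, each against control vector. Its brighter probe, ILMN_1782538, measured 7.78 and 7.93 with SPOP F102C, 8.12 and 8.04 with SPOP F133V and 8.01 and 7.90 with SPOP F133L, against 7.93, 7.85 and 7.65 with WT SPOP and 9.06, 8.97 and 9.24 with control vector. Every SPOP array lay below every control vector array, and mutants and WT SPOP overlapped. VIM fell by 1.28 ± 0.11 in WT SPOP against control vector (2.43-fold, adjusted p = 1.96e-05) and by 1.13 ± 0.09 in the mutants against control vector (2.18-fold, adjusted p = 1.43e-05). The mutants differed from WT SPOP by 0.15 ± 0.09 (95% interval -0.05 to 0.36, adjusted p = 0.306). Both calls of VIM against control vector stood in all 14 processing alternatives and all 12 fits without an array.

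The dimmer VIM probe, ILMN_2058251, measured 5.45 and 5.22 with SPOP F102C, 4.49 and 4.98 with SPOP F133V and 4.98 and 4.90 with SPOP F133L, against 5.36, 4.995 and 5.37 with WT SPOP and 7.34, 7.76 and 7.93 with control vector. It was detected on both SPOP F102C arrays, on all WT SPOP and control vector arrays, and on none of the SPOP F133V and SPOP F133L arrays, where its level is only a bound. In the fit over all probes it fell by 2.43 ± 0.18 in WT SPOP against control vector (5.41-fold, adjusted p = 1.13e-05). It also fell in the mutants against control vector (adjusted p = 8.66e-07), with no fold given because 4 of the 6 mutant arrays did not detect it, and the mutants differed from WT SPOP by -0.24 ± 0.15 (adjusted p = 0.391). Of all probes tested by themselves, 7.54% were called in mutants against control vector (4.05% lower), 7.01% in mutants against WT SPOP and 3.22% in WT SPOP against control vector (1.59% lower). Both VIM probes, which the annotation gives to the same RefSeq transcript, thus fell against control vector. In mutants against WT SPOP their signs differed, 0.15 on the brighter and -0.24 on the dimmer, and neither was called.

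The other mesenchymal members gave no signal above background. The CDH2 probe ILMN_1779228 stayed between 4.34 and 4.63 and the ZEB1 probe ILMN_1762231 between 4.29 and 4.42 over the 12 arrays, both detected on 0 of 12, so that neither was tested. CDH2 averaged 4.52 ± 0.09 in the mutants, 4.50 ± 0.06 in WT SPOP and 4.44 ± 0.08 in control vector, and ZEB1 averaged 4.36 ± 0.05 in the mutants, 4.38 in WT SPOP and 4.38 ± 0.06 in control vector (SD, n = 6, 3 and 3). These are values of undetected probes, and no order is read from them.

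The promoters of SPDEF, which rose in the mutants, and VIM, which fell, are shown because they are the called members with a promoter entry at the gene start, for the 250 bases before the gene start, as RefSeq gives it on GRCh38.p14. SPDEF lies on the reverse strand, chr6:34556330-34556579, and VIM on the forward strand, chr10:17227991-17228240, and both are written 5′ to 3′ toward the gene with a GC box in capitals.
SPDEF: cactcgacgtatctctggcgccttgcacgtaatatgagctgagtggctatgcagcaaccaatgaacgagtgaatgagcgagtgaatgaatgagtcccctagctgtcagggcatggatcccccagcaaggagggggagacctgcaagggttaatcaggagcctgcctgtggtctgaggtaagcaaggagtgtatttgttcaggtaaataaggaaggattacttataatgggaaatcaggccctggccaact
VIM: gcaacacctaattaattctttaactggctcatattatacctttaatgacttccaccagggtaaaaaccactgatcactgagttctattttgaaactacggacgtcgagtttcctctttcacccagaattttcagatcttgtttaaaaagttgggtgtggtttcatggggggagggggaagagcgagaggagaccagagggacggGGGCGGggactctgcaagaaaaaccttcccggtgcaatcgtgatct
In windows of 300 bases, which add 50 bases after the start, 4 motifs were searched on both strands: the GC box GGGCGG, the E-box CAGGTG that ZEB factors bind, the TATA box TATAAA and AGAACA, part of the androgen response element. VIM held 1 GC box, at position -46 from its start, and none of the others, and SPDEF held none of the 4. Among 35116 promoter windows of that length, 45.0% held the GC box, 20.6% the E-box, 11.5% the TATA box and 14.8% the androgen response letters. A match or its absence describes these letters in this window only. No promoter entry was matched for KRT18, KRT19, HOXB13, EPCAM or CDH1.

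Counted by comparison, 2 of the 8 tested members were called in WT SPOP against control vector, KRT8 higher and VIM lower, where 6.15% of all tested genes were called, 3.08% higher and 3.07% lower. In mutants against WT SPOP 3 of 8 were called, KRT18, KRT19 and SPDEF, all higher, where 5.57% of all tested genes were called higher and 11.8% in either direction. For mutants against control vector the count was 6 of 8, with KRT8, KRT18, KRT19, SPDEF and HOXB13 higher and VIM lower, where 12.2% of all tested genes were called, 5.59% higher and 6.62% lower. The median member difference was 0.11 in WT SPOP against control vector, 0.14 in mutants against WT SPOP and 0.56 in mutants against control vector, beside medians over all tested genes of 0.00, -0.01 and -0.01. These comparisons share the WT SPOP or control vector arrays, and so are not independent of each other. Side by side, KRT8 and VIM showed most of their difference from control vector already with WT SPOP, whereas KRT19 and SPDEF showed theirs with the mutants. HOXB13 was 0.48 above control vector with WT SPOP, which was not called, and 0.53 above it with the mutants, which was.

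Among the single mutants against WT SPOP, SPOP F102C had 1 member called (KRT19), where 3.15% of tested genes were called and 1.68% higher. SPOP F133V had 3 (KRT18, KRT19 and SPDEF), where 8.15% were called and 3.61% higher, and SPOP F133L had the same 3, where 6.55% were called and 3.23% higher. All of these calls were higher in the mutant. The F test among the 3 mutants called 0 of the 8 members, where 0.0245% of tested genes were called; its unadjusted p was under 0.05 for KRT8 (0.0177), KRT18 (0.0191) and KRT19 (0.00676). That KRT18 and SPDEF passed in SPOP F133V and SPOP F133L and not in SPOP F102C is therefore not shown to be a difference between mutants. Over all 5 groups the F test called 5 members, KRT8, KRT18, KRT19, SPDEF and VIM, where 12.8% of tested genes were called, and HOXB13 had an adjusted p of 0.0528.

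**Figure D3:**
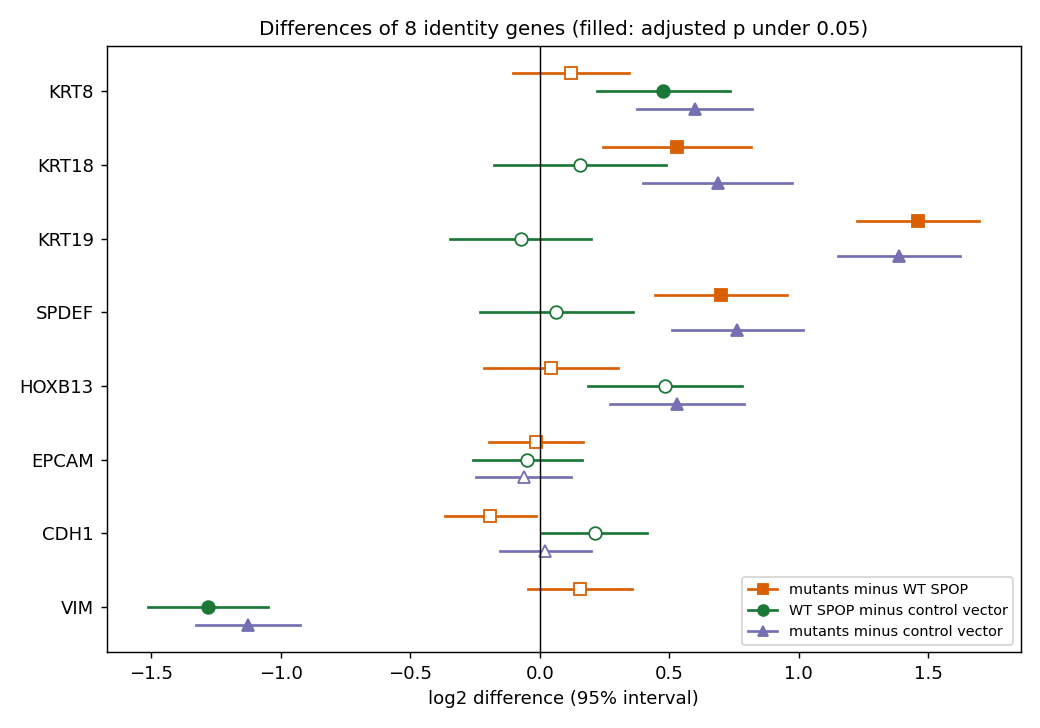
Log2 differences of the 8 tested members in mutants against WT SPOP, mutants against control vector and WT SPOP against control vector, with 95% intervals. Filled points passed limma's adjusted p of 0.05 and open points did not. KRT19 and SPDEF lie right of 0 in both mutant comparisons, and VIM lies left of 0 in both comparisons with control vector.

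For each member called over the 5 groups, the tested genes of the most similar profile were found by the root mean square difference between their 5 group means, each gene centred on its own mean. KRT19 was closest to TRPM8, a cold-sensing channel of prostate epithelium (0.111), and to the receptor FGFR3 (0.168), where the median over all tested genes was 0.741. For SPDEF the nearest were the factor MESP1 (0.0432) and the Wnt receptor FZD5 (0.0678), with a median over all genes of 0.391. KRT18 was nearest to ERRFI1, an inhibitor of EGF receptor signalling (0.0641), and OAT, ornithine aminotransferase (0.0783; median 0.387). VIM was nearest to TRIM49D2 (0.0782), detected on 3 arrays, and to the relaxin gene RLN1 (0.0877; median 0.492). The profile of KRT8 was nearest to SLC45A2 (0.0486), detected on 7 arrays, and to the glycosyltransferase B3GNT4 (0.0633), detected on 10 (median 0.311). These rest on 5 means and describe likeness of profile only.

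Other keratins were mostly undetected. Of 17 listed keratin and keratin-associated genes 7 were tested, the members KRT8, KRT18 and KRT19 among them. In WT SPOP against control vector 1 was called, in mutants against WT SPOP 2 and in mutants against control vector 3. All of these were the members already counted, and all were higher. Of all tested genes 3.08%, 5.57% and 5.59% were called higher in these comparisons. KRT10, a keratin of stratified epithelium, differed by -0.09 ± 0.09 between mutants and WT SPOP (adjusted p = 0.567), and KRT80 by 0.26 ± 0.17 (adjusted p = 0.353). Of 12 basal markers only ITGA6, an integrin subunit of the hemidesmosome, was tested. It fell by 0.49 ± 0.13 in mutants against WT SPOP (adjusted p = 0.0313), where 11.8% of all tested genes were called. The ITGA6 call was lost without WT SPOP array 1, 2 or 3, SPOP F133V array 2 or SPOP F133L array 1.

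Of the listed luminal and prostate lineage genes, 5 passed the test with WT SPOP against control vector and 8 with the mutants against WT SPOP. Of 23 listed genes, SPDEF and HOXB13 included, 17 were tested. In WT SPOP against control vector 2 rose, KLK3 (0.49) and TMPRSS2 (0.43), and 3 fell, AGR2 (-0.65), SLC45A3 (-0.46) and MSMB (-0.36), all but KLK3 named after their values were seen, with a list median of 0.09 and 6.15% of all tested genes called. In mutants against WT SPOP 6 rose, 2 fell and 9 did not pass, with a list median of 0.14, where 5.57% of all tested genes rose. The largest rises were those of KLK3 at 1.44 ± 0.10 (adjusted p = 1.45e-05), TRPM8 at 1.34 ± 0.11 (3.27e-05) and the prostatic acid phosphatase ACP3 at 0.86 ± 0.09 (0.000177), followed by SPDEF and, named after their values were seen, MSMB (0.50) and SLC45A3 (0.44), while FOLH1 (-0.48) and STEAP2 (-0.35) fell. The WT SPOP calls of this list were near the threshold. That of KLK3 was lost in 8 of 13 processing alternatives, where the difference ran from 0.09 to 0.63, and without control vector array 1 or 2 or WT SPOP array 2 or 3 (adjusted p of 0.0902 to 0.118). That of TMPRSS2 was lost without control vector array 1 or 3 or any WT SPOP array (0.0765 to 0.0860), that of SLC45A3 without any control vector array or WT SPOP array 3 (0.0513 to 0.0819), and that of MSMB in 7 of 14 processing alternatives and without every array but those of SPOP F133L (0.0545 to 0.152). AGR2 kept its call without any array and missed it for the mean of its probes (-0.23, adjusted p = 0.406). FOLH1 lost its call in mutants against WT SPOP without WT SPOP array 1 (0.0654) or 3 (0.0529), and STEAP2 in 5 of 14 processing alternatives and in 9 of 12 fits without an array (0.0509 to 0.145), all but those without control vector array 1 or 2 or SPOP F133L array 1. KLK3 was detected on all 6 mutant and all 3 WT SPOP arrays but on 1 of 3 control vector arrays. Against control vector, 7 of the 17 rose in the mutants and 1, AGR2, fell (-0.86), with a list median of 0.19, where 5.59% of all tested genes rose and 6.62% fell. SPDEF was thus among the 6 listed genes that rose in mutants against WT SPOP, beside 2 that fell and 9 that did not pass. HOXB13 was called in neither comparison that involves WT SPOP.

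Partners of the adhesion members were called in small numbers in the comparisons that involve WT SPOP, and in larger number in mutants against control vector. Of 34 listed genes of epithelial adhesion and junctions 26 were tested, EPCAM and CDH1 among them. In WT SPOP against control vector 2 rose, the desmosomal plaque gene DSP by 0.50 ± 0.12 (adjusted p = 0.0273) and RAB25 by 0.42 ± 0.10 (0.0360), and 0 fell, where 6.15% of all tested genes were called; the list median was 0.17. In mutants against WT SPOP the tight junction gene MARVELD2 fell by 0.53 ± 0.13 (adjusted p = 0.0212) and CLDN8, named after its value was seen, rose by 0.33 (0.0248). The list median there was 0.02, and 11.8% of all tested genes were called. Against control vector 7 of the 26 rose in the mutants and 0 fell, where 5.59% of all tested genes rose; the list median was 0.09, and with equal array medians CLDN8, EVPL, RAB25, ST14 and TJP1 were below 0 in that comparison. The WT SPOP call of DSP was lost without control vector array 1 or 2 or any WT SPOP array (adjusted p of 0.0531 to 0.106), and that of RAB25 without any control vector, WT SPOP or SPOP F102C array (0.0505 to 0.130). In mutants against WT SPOP, MARVELD2 lost its call without WT SPOP array 1 or 3 (0.0972 and 0.0780), and CLDN8 without WT SPOP array 2 or 3 or SPOP F102C array 2 (0.0565 to 0.105).

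Mesenchymal genes were mostly undetected. Of 33 listed, VIM, CDH2 and ZEB1 included, 10 were tested. In WT SPOP against control vector 0 rose and 2 fell, VIM and LOX, a collagen-crosslinking enzyme, with a median of -0.02, where 3.07% of all tested genes fell. LOX measured 4.56, 4.86 and 4.53 on WT SPOP arrays, where it was not detected, against 5.85, 5.57 and 5.51 on control vector arrays, where it was, so that it was at least 1.58-fold lower in WT SPOP (adjusted p = 0.00114). It was not detected on any mutant array either and was at least 1.53-fold lower there than in control vector (adjusted p = 0.000940). Of the 10, 0 were called in mutants against WT SPOP, with a median of 0.12, where 11.8% of all tested genes were called. Against control vector 2 fell in the mutants (VIM and LOX), where 6.62% of all tested genes fell. In that comparison 1 rose, the smooth muscle actin gene ACTA2 by 0.43 (adjusted p = 0.0107), named after its value was seen, where 5.59% of all tested genes rose.

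Of 15 listed transcription and splicing factors that maintain epithelia, 13 were tested. In WT SPOP against control vector 2 rose and 0 fell, where 3.08% of all tested genes rose. In mutants against WT SPOP 1 rose and 0 fell (5.57% of all tested genes rose), as in mutants against control vector (5.59%). In WT SPOP against control vector ELF5, an ETS factor of luminal epithelium, rose by 0.49 ± 0.10 (adjusted p = 0.0149) and the RNA-binding protein gene RBM47 by 0.39 ± 0.10 (0.0401). The ELF5 call was lost without control vector array 2 (0.0608) or WT SPOP array 2 (0.0648), and that of RBM47 in 9 of 12 fits without an array (0.0504 to 0.144), all but those without control vector array 3 or a SPOP F133L array. In mutants against WT SPOP TFAP2C rose by 0.31 ± 0.09 (adjusted p = 0.0436), a call lost without every array but SPOP F133L array 2 (0.0515 to 0.159), and in mutants against control vector ELF5 rose by 0.76. Of 11 genes that bind or accompany intermediate filaments 7 were tested. In mutants against WT SPOP 2 rose, in mutants against control vector 2 and in WT SPOP against control vector 1, where 5.57%, 5.59% and 3.08% of all tested genes rose. The nuclear lamin genes LMNB1 and LMNB2 rose in mutants against WT SPOP, by 0.39 ± 0.10 (adjusted p = 0.0254) and 0.38 ± 0.10 (0.0346). DSP and, named after its value was seen, LMNA (0.59) rose in the mutants against control vector. LMNB1 lost its call without any WT SPOP array or SPOP F102C array 1 (adjusted p of 0.0519 to 0.120), and LMNB2 in these fits and without SPOP F133V array 2 or SPOP F133L array 2 (0.0572 to 0.142).

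**Figure D4:**
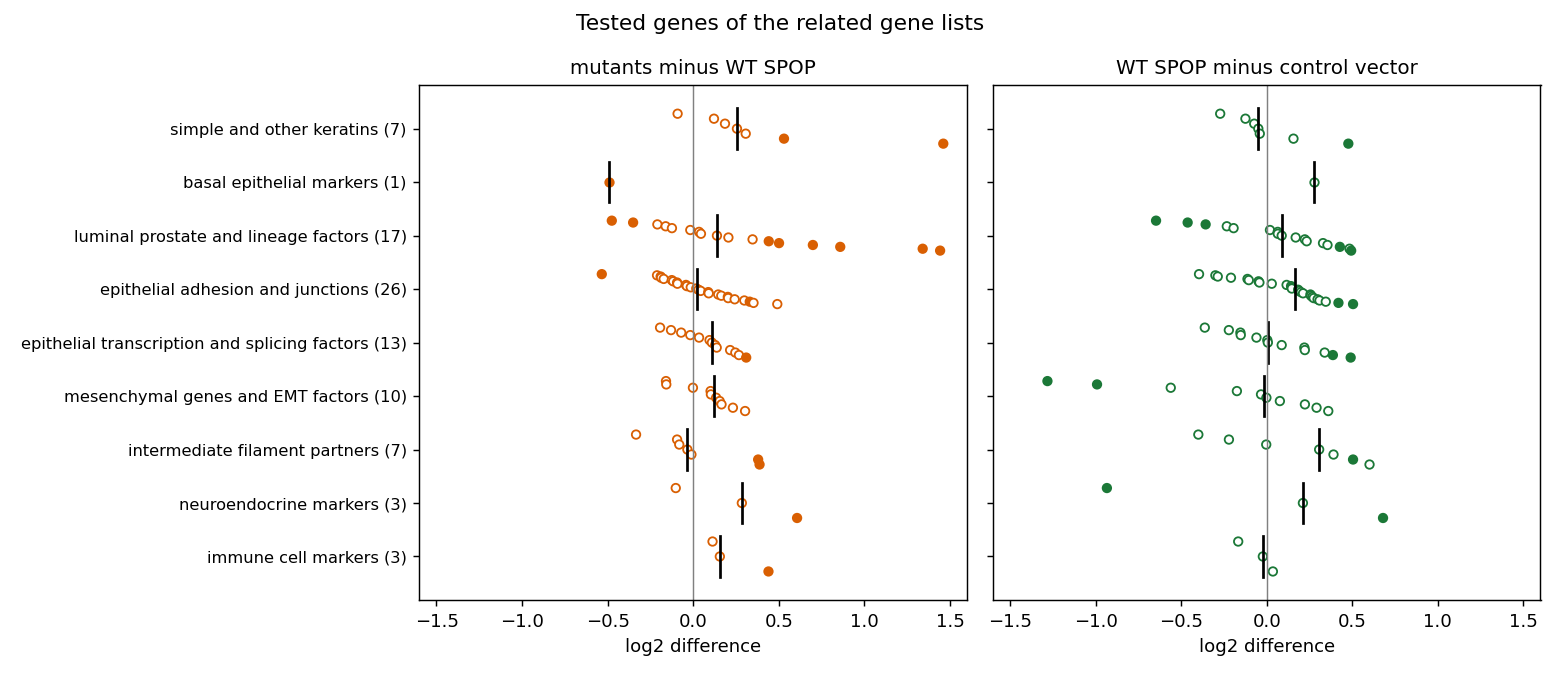
Log2 differences of the tested genes in each related list, for mutants against WT SPOP and for WT SPOP against control vector. Each point is a gene, filled where it passed limma's adjusted p of 0.05, and the vertical tick is the list median. The luminal list reaches 1.44 in mutants against WT SPOP, and the mesenchymal list reaches -1.28 in WT SPOP against control vector.

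Among markers of other cell types, the summed level of the tested neuroendocrine genes did not overlap between mutants, WT SPOP and control vector, but these genes did not move together. No fibroblast or endothelial marker was tested. Of 7 immune markers 3 were tested, and their summed linear level was 236 to 317 on mutant arrays, 190 to 243 on WT SPOP arrays and 218 to 223 on control vector arrays. CD68, a lysosomal protein that epithelial lines also express, rose by 0.44 ± 0.10 in mutants against WT SPOP (adjusted p = 0.0192). In that comparison 11.8% of all tested genes were called. CD68 missed the threshold without WT SPOP array 1 (0.102) and for the mean of its probes (0.431). Of 10 neuroendocrine markers 3 were tested, with summed levels of 614 to 681 on mutant arrays, 485 to 546 on WT SPOP arrays and 382 to 438 on control vector arrays. In WT SPOP against control vector 1 rose and 1 fell, where 6.15% of all tested genes were called. Against control vector 1 also rose and 1 fell in the mutants (12.2%), and in mutants against WT SPOP 1 rose and 0 fell (11.8%). In WT SPOP against control vector ENO2, a glycolytic enzyme of neurons and many tumours, rose by 0.68 ± 0.10 (adjusted p = 0.00179) and the synaptotagmin SYT4 fell by 0.93 ± 0.09 (4.93e-05), while in mutants against WT SPOP SYT4 rose by 0.61 ± 0.07 (0.000563). A sum of linear levels weighs bright genes most, and ENO2 read higher than SYT4 on every array. Of the defining neuroendocrine markers, CHGA and SYP were detected on 0 of the 12 arrays and INSM1 on 5. The part of the immune and neuroendocrine markers in the results on the identity genes was not tested.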

How the data were processed

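Per the file headers, the authors deposited for 12 Illumina arrays the linear intensity of every probe with its detection p-value, without normalization between arrays. Whether background was subtracted is not stated (lowest intensity per array 82.4 to 92.1). Besides, the authors deposited processed log2 values, for which the submitters' processing notes name lumi without its settings; they had 1 median (7.53) on all arrays and were used as an alternative.

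Intensities were processed with neqc (offset 16, negative controls inferred from the detection p-values) of limma 3.58.1 in R 4.3.3. Probes with a detection p-value under 0.05 on at least 2 arrays were kept (23133). In the platform annotation 30113 probes had 1 symbol, 8 had several and 17202 had none. The kept probe of highest mean stood for a gene, which left 12227 of 20046 genes. The number of arrays limits the precision.

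The 5 group means were fitted to all 12 arrays with limma (lmFit, eBayes; 7 residual and 4.67 prior degrees of freedom), mutants averaged with equal weight, and p-values adjusted by Benjamini-Hochberg over all tested genes. Members with several probes were also tested in a fit over all kept probes. Where a probe was detected on every array of a group and on none of another, the fold is a bound: the bright mean against, per dim array, the higher of the lowest detected signal and the probe's own. The fit was tested on simulated data.

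The members, gene lists and tests were chosen with earlier results of these data known. From each list, up to 3 called genes of lowest p in WT SPOP against control vector or mutants against WT SPOP were named. Some list genes outside this rule are also named, most of them marked but KRT10, KRT80, EVPL, ST14 and TJP1 not. Replicate numbers of the labels did not pair arrays (21 same-number pairs, r of -0.06 to 0.04). Alternatives covered background, normalization, the authors' values, filters, probe rules, array quality, moderation, a replicate block and leaving out each array. Promoters and gene names came from RefSeq on GRCh38.p14.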

Additional observations from a re-analysis of the deposited data

Results flagged for a closer look

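Mutant groups on opposite sides of WT SPOP were seen for KRT8 and EPCAM, in that every array of each lay on its own side of the WT SPOP mean. How many of all tested genes meet this rule was not counted. KRT8 was 0.459 higher in SPOP F133V than in SPOP F102C on the log2 scale (0.30 and -0.16 from WT SPOP) and 0.383 higher in SPOP F133L than in SPOP F102C (0.22 and -0.16). The difference of each pair was not tested by itself; limma's F test among the 3 mutants gave KRT8 an unadjusted p of 0.0177 and an adjusted p of 0.302. EPCAM differed by -0.140 between SPOP F133L and SPOP F102C (-0.08 and 0.06 from WT SPOP), with an F test p of 0.511 and an adjusted p of 0.817. This was its brightest probe, where the lower SPOP F102C array (11.9265) barely exceeded the WT SPOP mean (11.925). For SPOP F133L and SPOP F102C, the differences from WT SPOP were 0.01 and -0.08 on ILMN_2160209 and -0.10 and 0.08 on ILMN_3249032.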

How the results depend on the processing

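Results were recomputed in 14 processing alternatives and 12 fits without an array. KRT19 in mutants against WT SPOP (0.46 to 1.59 over these fits) and VIM against control vector kept their calls in all of them. With equal array medians the median of all genes moved to -0.10 in WT SPOP against control vector, -0.26 in mutants against WT SPOP and -0.37 in mutants against control vector, and higher calls were 169 of 593, 141 of 4617 and 156 of 6935, where quantile normalization gave 377 of 752, 681 of 1437 and 684 of 1494. With equal medians of the detected probes they were 1644 of 2204 in mutants against WT SPOP and 2297 of 3031 against control vector. Over all alternatives the share of genes called ran from 2.81% to 11.4% in WT SPOP against control vector, 2.52% to 37.8% in mutants against WT SPOP and 0.875% to 56.7% in mutants against control vector.

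Members called in WT SPOP against control vector numbered 1 with equal array medians, with every probe tested by itself and with the detected probes as a covariate, and 4 in the authors' values. Without some arrays KRT8 lost and HOXB13 gained a call, as given above. The covariate left 1 member called in mutants against WT SPOP, where 2.52% of tested genes were called, and 2 in mutants against control vector (0.875%). It left 0 in SPOP F133V against WT SPOP, where 5 of all 12227 tested genes were called (0.0409%), and 2 in the F test over 5 groups (4.16%). SPOP F102C had 2 under 6 alternatives (normexp, no background correction, the authors' values, probes detected on all arrays, array weights, trended robust moderation). SPDEF also passed in SPOP F102C without control vector array 3, as given above. SPOP F133V and SPOP F133L lost calls without some arrays, as given above for KRT18 and SPDEF. SPOP F133L had 1 with equal array medians. Beside these counts, 5.5% to 8.15% of tested genes were called for SPOP F102C in the 6 alternatives named, and 11.6% for SPOP F133L with equal array medians. For WT SPOP against control vector the shares were 4.85% with equal array medians, 3.22% with every probe by itself, 2.81% with the covariate and 10.5% in the authors' values. Without a control vector or WT SPOP array, the share in that comparison was 3.3% to 4.51%. In the same fits it was 1.41% to 3% for SPOP F102C, 3.95% to 7.67% for SPOP F133V and 3.02% to 6.07% for SPOP F133L, each against WT SPOP. The cause of these shifts was not tested. With the replicate number as a block the counts were 2 (WT SPOP against control vector), 3 (mutants against WT SPOP) and 6 (mutants against control vector). In these comparisons 4.44%, 5.5% and 7.52% of tested genes were called. KRT18 in SPOP F133L lost its call with the block (0.72, adjusted p = 0.0542).

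Signs turned mostly where no call was made. In WT SPOP against control vector, SPDEF was -0.091 with equal array medians, -0.028 with the covariate and -0.057 to 0.19 without an array, and EPCAM was 0.00883 with the covariate and -0.11 to 0.021 without an array. In mutants against WT SPOP, equal array medians gave KRT8 -0.24, HOXB13 -0.32, VIM -0.21, CLDN8 -0.034, TFAP2C -0.058 and the dimmer KRT18 probe -0.16. There HOXB13 was -0.014 with the covariate and -0.050 to 0.13 without an array, and EPCAM was 0.078 with equal medians of the detected probes, 0.00123 for the mean of probes, 0.068 with the covariate and -0.063 to 0.021 without an array. VIM was -0.042 for the mean of its probes, and its dimmer probe was 0.072 with equal medians of the detected probes. In mutants against control vector, equal array medians gave CDH1 -0.42, CD68 -0.049, CLDN8 -0.036, EVPL -0.017, RAB25 -0.12, ST14 -0.045, TJP1 -0.023 and the dimmer KRT18 probe -0.32. CDH1 was -0.028 with cyclic loess, -0.062 with the covariate and -0.023 to 0.052 without an array, and EPCAM was 0.077 with the covariate and -0.13 to 0.00657 without an array. Against WT SPOP, equal array medians gave KRT8 -0.33 in SPOP F133V and -0.049 in SPOP F133L, and KRT18 -0.019 in SPOP F102C, which was -0.025 to 0.31 without an array. A block by slide or scan was not run, since the headers name neither. Dim probes such as that of KRT19 depend most on the background setting among the called members.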
